A study of Mus musculus with 12 samples.

Results

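Notch signalling is carried by 8 genes in these livers, 4 ligands (Jag1, Jag2, Dll1 and Dll4) and 4 receptors (Notch1, Notch2, Notch3 and Notch4). They were taken by symbol and are 8 of the 31053 genes listed at E16.5 (a fetal stage, in embryonic days) and of the 22597 listed at postnatal day 3 (P3). All 8 were detected at both stages. Each gene was followed through every cell class that could be named, and the question was which cells held which ligand and receptor, and whether that differed with stage or genotype.

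A Notch ligand sits in the membrane of one cell and binds a Notch receptor on its neighbour. The bound receptor is cut by ADAM proteases and then by gamma-secretase, and the released intracellular part enters the nucleus, where it acts with the DNA-binding protein RBPJ on targets such as Hes1 and Nrarp. In the liver, JAG1 from portal mesenchyme and NOTCH2 in hepatoblasts are known for their part in bile duct formation, DLL4 and NOTCH1 for vessel patterning, and loss of a JAG1 or NOTCH2 copy in people for Alagille syndrome.

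Dissociated whole livers went into droplet-based RNA sequencing of single cells, in which each cell barcode carries molecules counted by unique molecular identifiers (UMIs). The mice were Jag1+/+, Jag1Ndr/+ or Jag1Ndr/Ndr offspring of crosses between Jag1Ndr/+ parents, where Ndr (Nodder) is a missense allele of Jag1. The labels name 2 individuals for each genotype and stage. Jag1Ndr/Ndr pups at P3 were recognised by jaundice. The enzyme mix TrypLE was part of the E16.5 dissociation but not of that at P3, and depletion of dead cells came before loading.

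The deposited matrices held fewer distinct libraries than labels. At E16.5 there were 5, in this order: Jag1+/+ replicate 1; a library deposited under 2 labels, Jag1+/+ replicate 2 and Jag1Ndr/+ replicate 2, called the shared library; the remaining heterozygote, Jag1Ndr/+ replicate 1; and both Jag1Ndr/Ndr homozygotes, replicates 1 and 2. Values at E16.5 follow that order. At P3 there were 4, given in the order A, B, C and D. Libraries A and B carried a Jag1+/+ label but their barcodes also recurred under other labels, so their genotype is unclear; C carried only the Jag1Ndr/Ndr label and D the Jag1Ndr/+ label. A barcode needed 1000 UMIs or more, of which no more than 15% mitochondrial, which after doublet removal left 15651 to 21052 cells per E16.5 library and 14009 to 19425 per P3 library, with median UMI counts of 5340 to 9262 and 2862 to 5964.

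Cells fell into 14 classes named from marker genes, without use of the 8 genes or of their targets. The names were rebuilt here and may differ from those of the authors. The classes that matter most below are endothelial-like (1284 cells at E16.5 and 555 at P3), mesenchymal-like (1035 and 411), hepatocyte-like (4776 and 1577), stem and progenitor-like (699 and 622), macrophage-like (4488 and 3238) and dendritic-like cells (412 and 801), with 58847 and 31548 erythroid-like cells. The mesenchymal-like class was not of liver stroma alone. At P3 its leading genes included the pancreatic islet genes Ins2, Ins1 and Iapp, with a sub-cluster of 62 cells led by them, and at E16.5 a sub-cluster of 140 cells was led by the heart muscle genes Nppa, Myl4 and Sln. No class could be named cholangiocyte-like. Barcodes with at least 3 of 10 bile duct markers numbered 29 at E16.5 and 32 at P3, of which 10 and 1 were hepatocyte-like. They held 40 and 10 Notch2 UMIs and 9 and 5 Jag1 UMIs, of 771127 and 438261 UMIs in all, and no biliary level is read from them.

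Levels are given as CPM, a gene's UMIs scaled to the total UMIs of the class in that library, with the mean and SD over libraries. They are compared between classes for the same gene, and are not ranked between genes. The erythroid-like class stands in as background, since free RNA gives UMIs in cells that do not express a gene. For Notch2 it serves only as a class to compare with, as explained with that gene. Many barcodes carried RNA of another class: sub-clusters led by markers of another class made up 51.6% of endothelial-like, 54.4% of mesenchymal-like and 42.9% of hepatocyte-like cells at E16.5, and 29.4%, 58.2% and 42.4% at P3. Without these sub-clusters, endothelial-like levels at E16.5 were higher for Notch1 (166 ± 44.7 CPM against 128 ± 32.9), Dll4 (54.3 ± 14.95 against 43.6 ± 8.02), Notch4 (28.5 ± 7.1995 against 20.4 ± 6.31) and Dll1 (16.45 ± 3.94 against 11.4 ± 3.63). At P3 mesenchymal-like Jag1 was 10.5 ± 7.90 CPM without them and 5.51 ± 3.70 with them, and hepatocyte-like Notch1 1.23 ± 1.55 and 6.401 ± 2.78 CPM. Other levels without them are given beside some of the results below. The removal was incomplete, since sub-clusters with fewer than 2 markers of another class among their 10 leading genes stayed in.

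**Figure D1:**
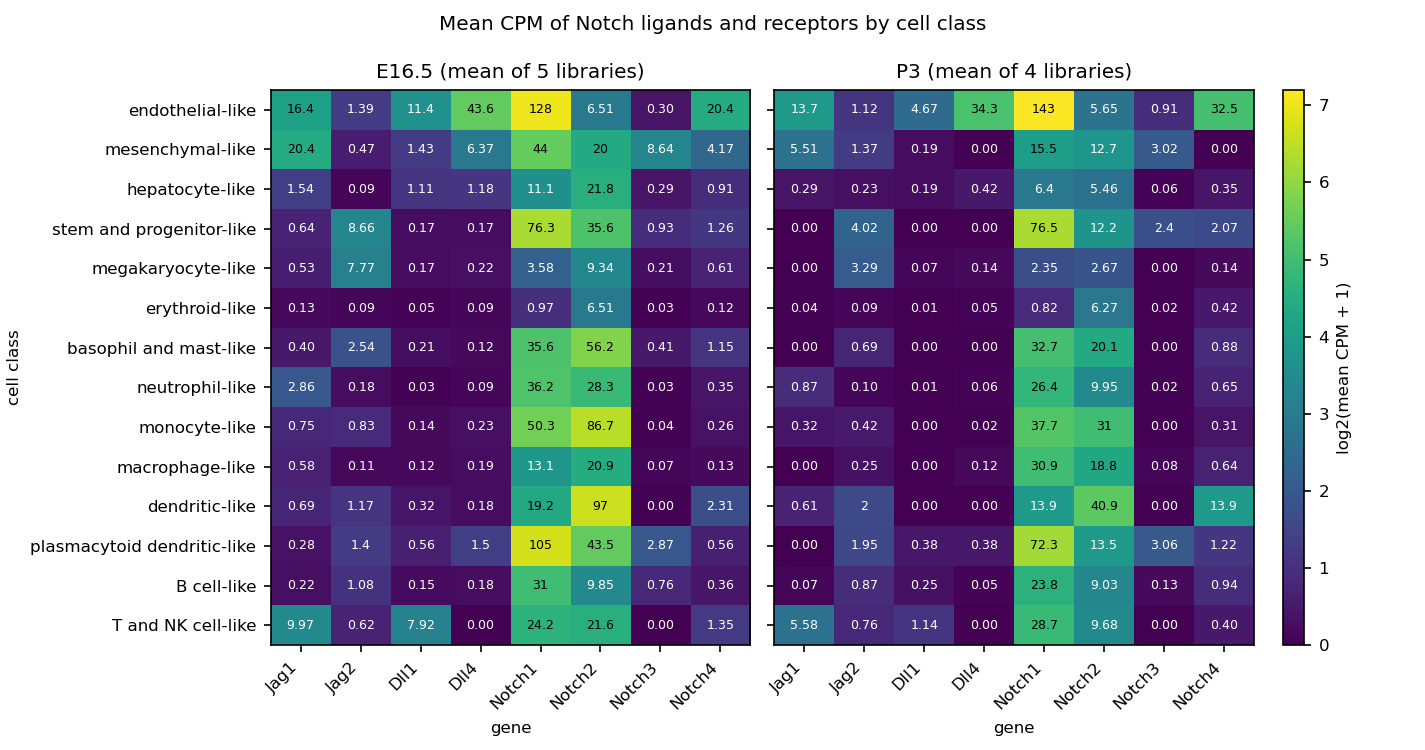
Mean CPM of the 8 genes in 14 cell classes at E16.5 (left, 5 libraries) and P3 (right, 4 libraries); colour is log2(mean CPM + 1) and the printed number is the mean CPM. Dll4 and Notch4 were highest in endothelial-like cells at both stages, Notch1 was high in endothelial-like, stem and progenitor-like and plasmacytoid dendritic-like cells, and Notch2 in dendritic-like and monocyte-like cells.

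Dll4 and Notch4 were the 2 genes whose endothelial-like libraries all lay above those of the second-highest class at both stages, and their promoter stretches are shown for that reason. They come from RefSeq sequence on GRCm38.p6 and end at the base before the gene start in GENCODE M21. The Dll4 stretch is chr2:119325534-119325783 on the plus strand and the Notch4 stretch chr17:34564045-34564267 on the plus strand. Capitals mark AGGAAG or its reverse complement CTTCCT, a longer word around GGAA, the core of ETS-family binding sites. GGAA outside this longer word is not marked.
Dll4: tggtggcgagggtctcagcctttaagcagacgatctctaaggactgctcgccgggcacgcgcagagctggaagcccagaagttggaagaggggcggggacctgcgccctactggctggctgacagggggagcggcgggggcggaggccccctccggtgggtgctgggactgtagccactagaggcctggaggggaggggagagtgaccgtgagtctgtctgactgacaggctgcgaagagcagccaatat
Notch4: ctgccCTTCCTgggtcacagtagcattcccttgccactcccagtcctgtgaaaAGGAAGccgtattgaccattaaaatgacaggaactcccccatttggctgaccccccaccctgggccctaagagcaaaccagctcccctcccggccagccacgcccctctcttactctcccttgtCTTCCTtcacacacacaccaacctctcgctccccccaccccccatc
The Notch4 stretch held 3 matches and the Dll4 stretch 0. AGGAAG on either strand occurred in 29.5% of 32851 promoters of 250 bases before the start, and among the 8 genes in Notch4 and in 1 of the starts of Dll1. TGGGAA on either strand, the core of RBPJ sites, occurred in 21.6% of these promoters and in 0 of the 8 genes. These are letters in a window and describe no binding.

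The genes lie on 4 chromosomes of GRCm38, and none overlaps another protein-coding gene. Jag1 (ENSMUSG00000027276) spans chr2:137081456-137116644 on the minus strand, Dll4 (ENSMUSG00000027314) chr2:119325784-119335962 on the plus strand and Notch1 (ENSMUSG00000026923) chr2:26457903-26516663 on the minus strand. Jag2 (ENSMUSG00000002799) spans chr12:112907819-112929776 on the minus strand and Notch2 (ENSMUSG00000027878) chr3:98013527-98150361 on the plus strand. Dll1 (ENSMUSG00000014773) at chr17:15367354-15376872 and Notch3 (ENSMUSG00000038146) at chr17:32120820-32166852 are on the minus strand, and Notch4 (ENSMUSG00000015468) at chr17:34564268-34588503 is on the plus strand. 

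Jag1, the ligand altered in these mice, was found in 2 stromal compartments. At E16.5 it was highest in mesenchymal-like cells at 20.4 ± 6.95 CPM (SD, n = 5) and next in endothelial-like cells at 16.4 ± 7.23 CPM. Mesenchymal-like levels were 23.8, 29.0, 11.5, 15.3 and 22.1 CPM, and endothelial-like levels 21.97, 15.8, 7.01, 24.8 and 12.1 CPM. The libraries of the 2 classes overlapped, and which class led changed to endothelial-like with the mixed sub-clusters left out (25.1 ± 12.98 against 22.7 ± 9.32 CPM). Hepatocyte-like cells held 1.54 ± 0.409 CPM and erythroid-like cells 0.128 ± 0.0446 CPM. Of the 56 hepatocyte-like UMIs, 30 were in 1 sub-cluster of 117 cells led by Mest, Sparc and Dcn.

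Within the endothelial-like class Jag1 was concentrated in a few cells. A sub-cluster of 44 arterial-like cells led by Eln, Gja5 and Npr3 held 104 of the 200 Jag1 UMIs of the class, at 375 CPM (exact 95% Poisson interval 307 to 455, counting error only). In the 5 libraries, arterial-like Jag1 was 371, 434, 232, 494 and 214 CPM over 11, 12, 4, 9 and 8 cells. Every library was above the pooled sinusoidal-like level of 6.24 CPM (2.70 to 12.3; 113 cells) and venous-like level of 11.4 CPM (3.70 to 26.6; 31 cells). Stellate-like mesenchymal sub-clusters, 164 cells in all, held 48.9 CPM (36.6 to 64.0). Mesothelial-like cells held 9.65 CPM (3.88 to 19.9; 63 cells). A further mesenchymal sub-cluster of 47 cells, led by the endothelial genes Lyve1, Fabp4 and Kdr, held 72 of the 146 mesenchymal-like Jag1 UMIs.

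At P3 the Jag1 level in endothelial-like cells was 18.3, 30.0, 2.27 and 3.99 CPM in libraries A to D, from 22, 22, 2 and 2 UMIs. The values of A and B lay above those of C and D, but C and D rest on 2 UMIs each. The Poisson interval of A (11.5 to 27.8 CPM) overlapped with that of D (0.483 to 14.4 CPM) but not with that of C (0.275 to 8.19 CPM). Such an order of 2 values against 2 can arise by chance, and the genotype of A and B is unclear. No genotype difference is read from it. Of the 21 arterial-like cells, the 5 of A and the 10 of B held 7 and 16 Jag1 UMIs (494 and 251 CPM). The 1 cell of C and the 5 cells of D held none, among 2992 and 10676 UMIs in all, too few to set these libraries apart from A and B. Mesenchymal-like levels were 3.03, 4.72, 3.36 and 10.9 CPM, with D the highest. A venous-like sub-cluster led by Mgp and Rspo3 held 73.4 CPM (30 cells, 12 UMIs), whereas another led by Selp and Wnt2 (36 cells) and the sinusoidal-like cells (87 cells, upper limit 10.0 CPM) held no Jag1 UMI.

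Outside the stroma, Jag1 UMIs came mainly from neutrophil-like cells, which held 37.0% of all Jag1 UMIs at E16.5 and 40.8% at P3. This was a low level in a large class, 2.47, 4.07, 2.18, 2.80 and 2.77 CPM at E16.5 and 0.917, 1.28, 0.644 and 0.632 CPM at P3. The stages did not overlap, and every library was above the highest erythroid-like level of its stage (0.202 and 0.0838 CPM). T and NK cell-like cells held 7.34, 3.99, 7.28 and 3.68 CPM at P3. At E16.5 they held 0 to 25.8 CPM, but with only 10 to 38 cells per library.

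Jag2, the second Jagged ligand, had its highest levels in blood-forming cells. Stem and progenitor-like cells held 10.8, 6.97, 5.21, 11.6 and 8.73 CPM at E16.5, and megakaryocyte-like cells 7.78, 8.39, 6.92, 4.90 and 10.8 CPM. The 2 classes overlapped and either could lead, with stem and progenitor-like cells higher in 2 of the 5 libraries. Basophil and mast-like cells followed at 2.54 ± 2.13 CPM. The highest E16.5 cluster was a group of 60 stem and progenitor-like cells led by Ifitm1 and Hlf, genes of early progenitors, at 23.9 CPM (14.2 to 37.8). At P3 stem and progenitor-like cells held 3.52, 3.42, 3.94 and 5.19 CPM and megakaryocyte-like cells 1.90, 6.01, 3.14 and 2.096 CPM, and these classes overlapped again.

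Dll1, a Delta ligand, was sparse, with 267 UMIs over all E16.5 cells and 45 over all P3 cells. Endothelial-like cells held 11.8, 12.6, 6.59, 9.69 and 16.4 CPM at E16.5, 54.7% of the gene's UMIs. They held 5.84, 5.46, 3.40 and 3.99 CPM at P3, all below the lowest E16.5 library. T and NK cell-like cells came second at both stages and overlapped with them, at 7.92 ± 5.60 CPM at E16.5 and 1.14 ± 1.68 CPM at P3. The P3 place rests on library C, which held 6 of the 8 UMIs (3.64 CPM, against 0.490, 0.444 and 0 CPM in A, B and D). Within the endothelial-like class at E16.5, arterial-like cells held 46.9 CPM (24.99 to 80.2) and sinusoidal-like cells 15.6 CPM.

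Dll4 is the Delta ligand of vessels. Endothelial-like cells held 41.8, 48.7, 30.9, 44.6 and 51.7 CPM at E16.5 and 26.7, 45.03, 29.5 and 35.9 CPM at P3. They carried 75.7% and 77.9% of its UMIs. Mesenchymal-like cells came second at E16.5 with 9.39, 9.35, 6.003, 3.23 and 3.88 CPM, and no library overlapped with the endothelial-like class. Of these 46 mesenchymal-like UMIs, 42 were in the Lyve1-, Fabp4- and Kdr-led sub-cluster, and without the mixed sub-clusters the level was 1.34 ± 1.25 CPM. At P3 the mesenchymal-like class held no Dll4 UMI, which allows up to 1.23 CPM over the class. Among vessels, Dll4 was 119 CPM in arterial-like (82.0 to 167), 54.6 in sinusoidal-like (42.6 to 69.0) and 25.1 in venous-like cells (12.5 to 44.9) at E16.5, and 153 (83.6 to 256), 76.2 (50.6 to 110) and 11.2 CPM (3.06 to 28.8) at P3.

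**Figure D2:**
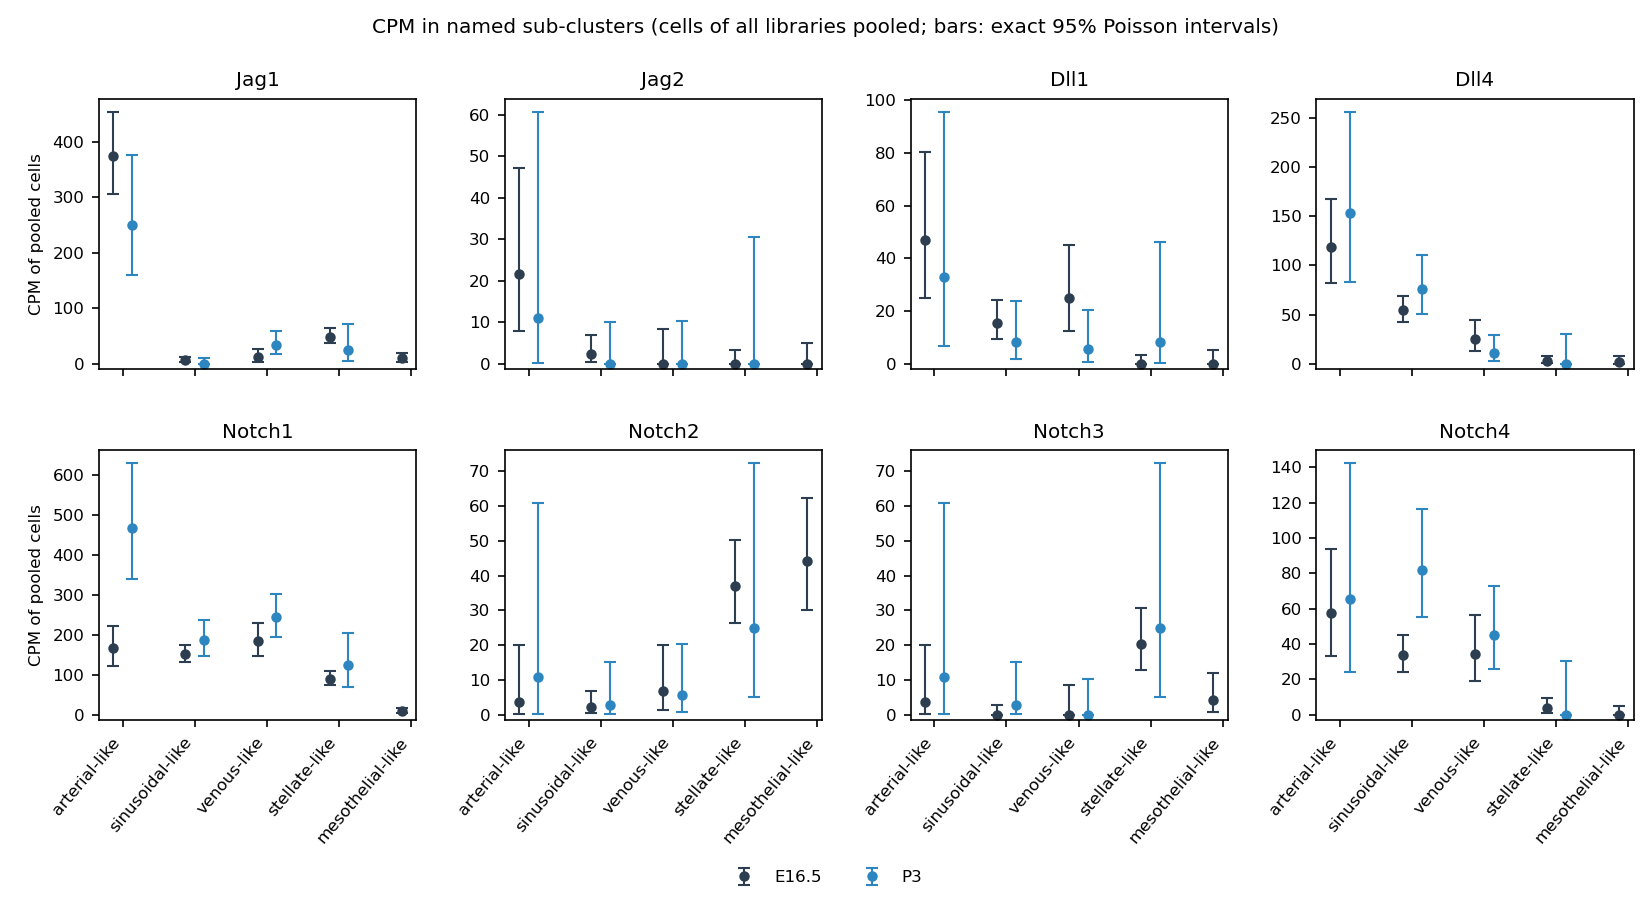
CPM of the 8 genes in sub-clusters of endothelial-like and mesenchymal-like cells, with the cells of all libraries pooled and exact 95% Poisson intervals, which cover counting error only; a mesothelial-like sub-cluster was named at E16.5 only. Jag1 reached 375 CPM at E16.5 and 251 CPM at P3 in arterial-like cells, and Dll4 was higher in arterial-like than in venous-like cells at both stages.

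Notch1, a receptor of vessels and of T-lineage cells, was highest in endothelial-like cells. They held 146, 162, 77.1, 115 and 138 CPM at E16.5 and 132, 143, 126 and 172 CPM at P3. Thinned to 2000 UMIs per cell, 16.04% of endothelial-like cells had a Notch1 UMI at E16.5 and 22.3% at P3, against 0.207% and 0.166% of erythroid-like cells. Unthinned, the shares were 45.1% and 43.2%, against 0.704% and 0.460%, at median depths of 6103 to 8566 UMIs in endothelial-like and 5008 to 9677 in erythroid-like libraries at E16.5 and 3076.5 to 5273 and 2753 to 5624 at P3. Arterial-like, sinusoidal-like and venous-like cells were alike at E16.5 (166, 153 and 185 CPM, with overlapping intervals). At P3 arterial-like cells stood at 469 CPM (340 to 632), above sinusoidal-like cells at 188 (146 to 238) and venous-like cells at 244 (196 to 301).

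Notch1 was also high in blood-forming and plasmacytoid dendritic-like cells. Plasmacytoid dendritic-like cells held 111, 126, 43.6, 103 and 140 CPM at E16.5 and overlapped with the endothelial-like class. At P3 they held 76.6, 64.8, 74.6 and 73.2 CPM, and stem and progenitor-like cells 76.8, 68.9, 63.8 and 96.5 CPM, all below every endothelial-like library. The highest single cluster at E16.5 was a group of 103 stem and progenitor-like cells led by Hmga2, Ccl4 and Trbc2 at 206 CPM (185 to 228). At P3 the clusters led by Hmga2 and Sox4 (181 CPM) and by Trbc2, Hmga2 and Tcf7 (146 CPM) were the highest. Trbc2 encodes a T cell receptor constant region and Tcf7 is a T-lineage transcription factor that acts downstream of Notch in the thymus. By share of molecules, neutrophil-like cells held the most Notch1, with 32.5% of its UMIs at E16.5 and 33.04% at P3, at 36.2 ± 8.66 and 26.4 ± 3.70 CPM.

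Notch2, the receptor tied to bile duct formation, was highest in myeloid classes. Dendritic-like cells led with 85.1, 133, 77.6, 80.0 and 110 CPM at E16.5 and 37.0, 63.1, 28.7 and 34.7 CPM at P3. Monocyte-like cells followed with 75.9, 99.9, 86.6, 79.7 and 91.6 CPM, then 31.5, 41.8, 22.6 and 28.1 CPM, and overlapped with the dendritic-like class at both stages. Endothelial-like cells, where Notch1 was highest, held 6.51 ± 0.847 and 5.65 ± 2.85 CPM of Notch2. The erythroid-like levels were 6.51 ± 1.87 and 6.27 ± 2.02 CPM, and the libraries of the 2 classes overlapped. Erythroid-like Notch2 is not taken as a background level. At P3 it stood at 6.27 CPM against 9.92 CPM over all cells, whereas erythroid-like Notch1 stood at 0.815 CPM against 15.8 CPM. The source of the erythroid-like Notch2 UMIs was not tested.

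In hepatocyte-like cells Notch2 was 18.8, 32.2, 15.5, 17.1 and 25.5 CPM at E16.5, all above the highest erythroid-like library at 9.51 CPM. At P3 it was 6.07, 5.94, 2.82 and 7.01 CPM, with library C below the erythroid-like range of 3.76 to 8.70 CPM and the other 3 within it. As means over single cells, hepatocyte-like values were 3.94, 5.68, 1.86 and 3.23 CPM and erythroid-like values 2.73, 3.82, 2.25 and 2.91 CPM. A and B then lay above the erythroid-like range, so the relation to erythroid-like cells at P3 depends on this choice. Hepatocyte-like Notch1 was 11.1 ± 2.46 CPM at E16.5, and 4.50 CPM without the mixed sub-clusters, whereas Notch2 remained at 22.8 ± 7.77 CPM. The E16.5 sub-cluster led by Serpina6, a liver-secreted corticosteroid carrier (348 cells), held 38.9 CPM of Notch2. A sub-cluster of 200 hepatocyte-like cells led by Spp1, a gene shared by bile duct cells and other cell types, held 13.96 CPM (7.43 to 23.9). Of the mesenchymal sub-clusters, mesothelial-like cells held 44.1 CPM (30.2 to 62.3) and stellate-like cells 36.9 CPM (26.4 to 50.3).

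Notch3, known from vessel-wall and perivascular cells, was scarce, with 179 UMIs at E16.5 and 51 at P3. Mesenchymal-like cells held 12.3, 6.55, 3.00, 8.07 and 13.3 CPM at E16.5, each above the plasmacytoid dendritic-like level of the same library. Stellate-like cells held 20.3 CPM (12.7 to 30.7) at E16.5 and 24.8 CPM from 3 UMIs (5.12 to 72.5) at P3. At P3 the mesenchymal-like class held 3.79, 1.57, 6.71 and 0 CPM and plasmacytoid dendritic-like cells 2.22, 1.51, 1.86 and 6.65 CPM, each value from 3 or fewer UMIs in the latter, so no order could be read. Stem and progenitor-like cells held 17 of the 51 UMIs at P3, at 2.40 ± 0.548 CPM in a narrow range of 1.92 to 3.15 CPM.

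Notch4 is known as an endothelial receptor. Endothelial-like cells held 21.4, 30.3, 13.6, 19.8 and 16.8 CPM at E16.5 and 25.01, 38.2, 40.8 and 25.9 CPM at P3. Mesenchymal-like cells came second at E16.5 with 4.34, 11.2, 2.00, 1.61 and 1.66 CPM, and 21 of their 27 UMIs were in the Lyve1-, Fabp4- and Kdr-led sub-cluster. At P3 the second class was dendritic-like with 10.4, 11.4, 21.96 and 11.9 CPM, against 1.03, 1.58, 2.32, 3.96 and 2.66 CPM at E16.5. No library of the 2 stages overlapped. Of the dendritic-like clusters, 1 of 160 cells led by the class II genes H2-Ab1, H2-Eb1 and H2-Aa reached 30.4 CPM (19.7 to 44.9). The endothelial-like cluster held 32.3 CPM (26.5 to 39.0). Class II genes also led other dendritic-like clusters, and this cluster was picked from among them. For the class as a whole, every dendritic-like library was below every endothelial-like library at P3.

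**Figure D3:**
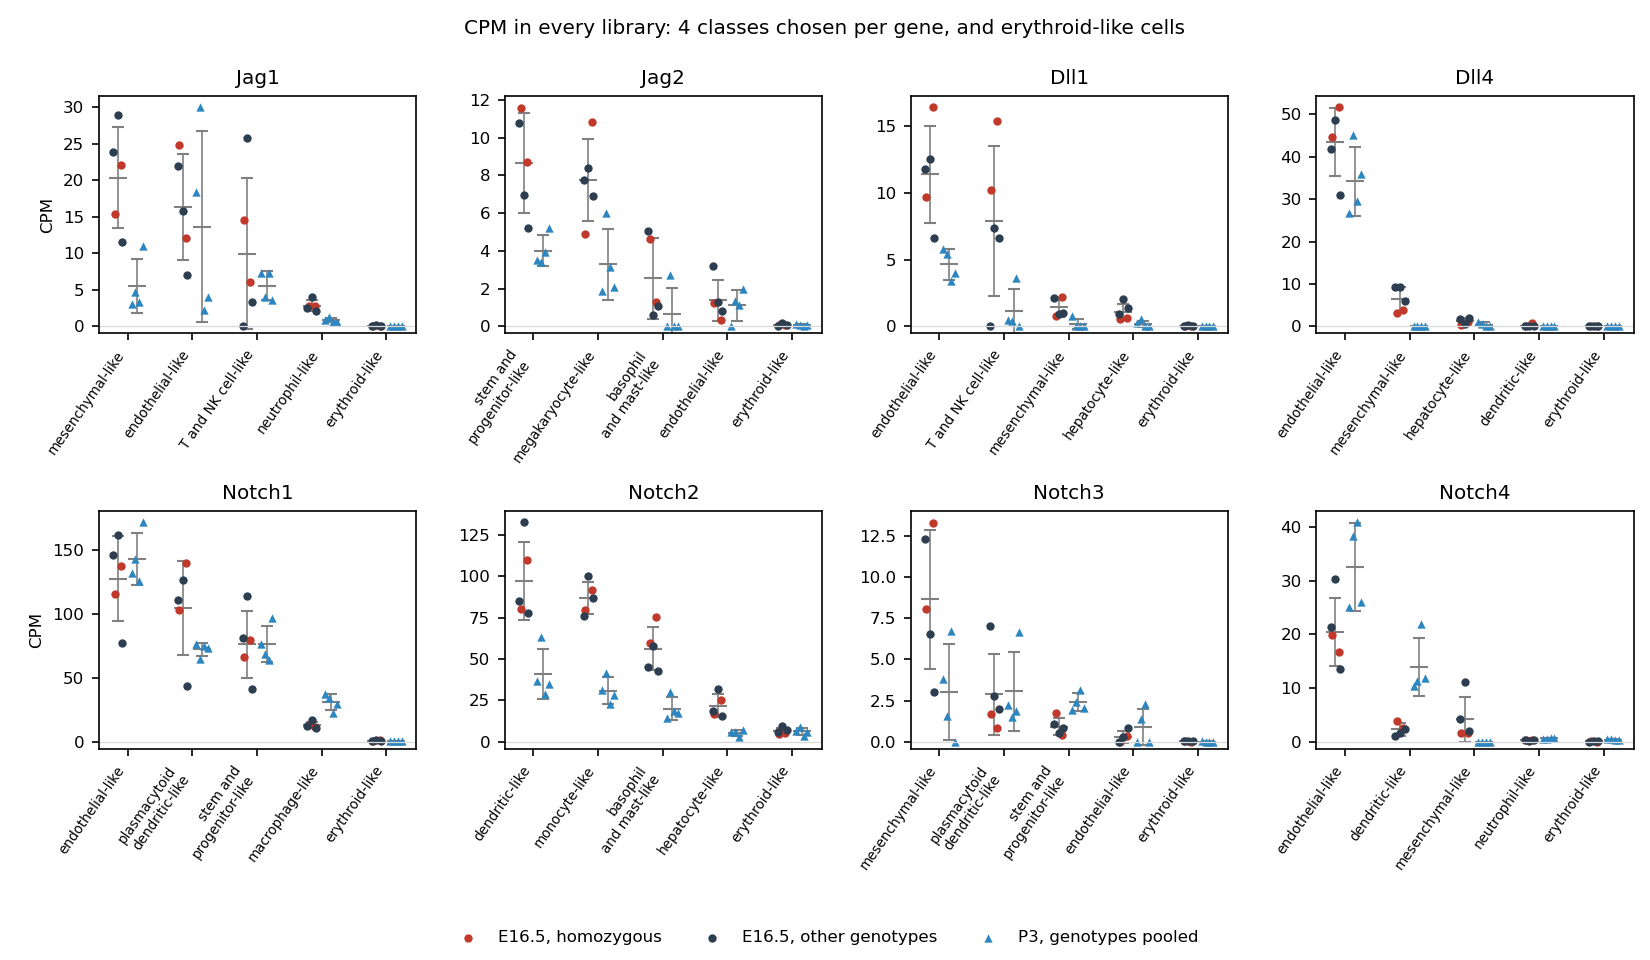
CPM of each gene in every library for 4 chosen classes and erythroid-like cells; red circles are the 2 homozygous E16.5 libraries, dark circles the other 3 E16.5 libraries and blue triangles the 4 P3 libraries, with the mean and SD in grey. For endothelial-like Dll4 the homozygous library of replicate 1 is at 44.6 CPM, beside 41.8 and 30.9 CPM in the others of that number, and that of replicate 2 at 51.7 CPM, beside 48.7 CPM (log2 change 0.26 ± 0.189 in the fit, adjusted p = 1.00), and dendritic-like Notch4 at P3 lies above all E16.5 values.

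Some genes shared a distribution with a member over the 70 pairs of class and library at E16.5. Pearson's r of log2(CPM + 1) is given as a description, since the points share libraries and classes. Dll4 was most like Pcdh12, an endothelial protocadherin (r = 0.95), A830082K12Rik (0.95) and Galnt18 (0.95). Jag1 was most like Ccdc80, a secreted matrix protein (0.86), Dennd2a (0.82) and the matrix protease Adamts5 (0.81). Genes among those most like Jag2 were Sugp2 (0.82) and Dtd1 (0.81). Notch1 was most like Map4k4 (0.92), Clip1 (0.87) and Txndc12 (0.86), and Notch2 most like Hk2 (0.86), Pmaip1 (0.85) and Nfil3 (0.84). Notch3 was most like Sema3d (0.82), Fbln1 (0.80) and Mfap2 (0.79). Notch4 was most like Twist1, Zfp57 and Hoxb5 (0.84 each), and Dll1 most like Serpina3f (0.84), Bik (0.83) and 4833403J16Rik (0.77), matches that rest on few UMIs.

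The homozygous comparison at E16.5 asked whether any of the 8 genes changed in Jag1Ndr/Ndr livers within a class, setting 2 homozygous libraries against the other 3. With edgeR's quasi-likelihood test and Benjamini-Hochberg adjustment, 0 of 42 tested pairs of gene and class were called, against 0.000756% of all 132274 pairs. The median log2 change of the 42 was 0.05. Jag1 was measured at a log2 change of −0.02 ± 0.324 (SE) in mesenchymal-like, 0.35 ± 0.365 in endothelial-like and −0.05 ± 0.464 in hepatocyte-like cells, and Notch2 at 0.05 ± 0.240 in hepatocyte-like cells. A missed threshold does not show that levels were equal. At an unadjusted p under 0.05 there was 1 pair, mesenchymal-like Notch1 (0.53 ± 0.238, adjusted p = 1.00), and DESeq2 called 0 of the 42. With the replicate block edgeR called 0 of the 42 and 0 of all pairs, against 1 of all pairs without it. With the block 0 of the 42 had an unadjusted p under 0.05, so mesenchymal-like Notch1 missed that as well. All genotype log2 changes, SEs and p-values given here come from the fit without the block, which leaves the pairing out.

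Mesenchymal-like Dll4, picked from the 42 pairs, was 3.23 and 3.88 CPM in the homozygous libraries and 6.003 to 9.39 CPM in the others (log2 change −1.08 ± 0.517, adjusted p = 1.00). It did not pass and is not read as a genotype difference. Most of these UMIs lay in the Lyve1-, Fabp4- and Kdr-led sub-cluster of 47 cells. Separately, the Jag1Ndr/+ replicate 1 library was the lowest of the 5 in endothelial-like cells for 6 of the 8 genes. The share of all genes lowest in this library was not computed, so this is not read as a trait of the 8 genes. In that library the summed endothelial markers of the class were also lowest (3767 CPM, against 4999 to 6255), its summed erythroid markers highest (130846 CPM, against 69816 to 100347) and its doublet share highest (31.8%). Their part in its low values was not tested.

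At P3 only libraries C (Jag1Ndr/Ndr label) and D (Jag1Ndr/+ label) had a usable genotype, so there is no test. In endothelial-like cells Jag1 was 2.27 CPM (exact 95% Poisson interval 0.275 to 8.19) in C and 3.99 CPM (0.483 to 14.4) in D, and Dll4 was 29.5 CPM (19.3 to 43.2) and 35.9 CPM (21.3 to 56.8). Endothelial-like Notch1 was 126 CPM (104 to 152) and 172 CPM (137 to 212), and Notch4 40.8 CPM (28.6 to 56.5) and 25.9 CPM (13.8 to 44.4). Dendritic-like Notch2 was 28.7 CPM (19.9 to 40.1) and 34.7 CPM (23.7 to 48.9). These intervals overlap, as did those of 109 of the 112 pairs of gene and class. Many of the 112 pairs hold few UMIs, and the matching share over all genes was not computed. The count is therefore not read as a result about these 8 genes. In the other 3 D was above C. B cell-like Notch2 was 5.21 CPM (3.96 to 6.72) in C and 12.9 CPM (10.5 to 15.7) in D. B cell-like Notch1 was 20.7 CPM (18.2 to 23.6) in C and 28.3 CPM (24.7 to 32.3) in D. Erythroid-like Notch2 was 3.76 CPM (3.22 to 4.37) in C and 6.18 CPM (5.40 to 7.04) in D. The intervals cover counting error only, not the spread between animals.

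Between stages, ligands and receptors mostly stood lower at P3. The 4 P3 libraries were set against the 5 E16.5 libraries within 13 classes, genotypes pooled, by the same test. Of 37 tested pairs of the 8 genes, 25 passed, 22 lower and 3 higher at P3, with a median log2 change of −0.65, against medians of −0.015 to 0.029 over all genes of a class. Over all 124699 pairs, 43.6% passed, 21.7% lower and 21.9% higher. The libraries of the 2 stages did not overlap in 17 of the 37 pairs, 13 lower and 4 higher, against 34.3% of all pairs (9.8% lower and 24.5% higher). Stage goes with TrypLE digestion, software version and the list of counted genes, which cannot be told apart from age. Depth also went with stage, since all 92332 kept E16.5 cells had 2000 UMIs or more, against 57697 of 64883 at P3. With a minimum of 2000 UMIs, 25 of the 37 pairs passed. Notch3 was tested in no class.

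The fitted changes rest on TMM scaling, which sets the bulk of genes in a class to no change. Before that scaling, the median gene at 20 CPM or more already differed in CPM between stages, by 0.0034 (hepatocyte-like) to 0.70 (erythroid-like) on the log2 scale, and by 0.60 in macrophage-like cells. Fitted values in erythroid-like and macrophage-like cells are therefore changes relative to that shift and lie below the ratio of the CPM values given here. The sign differed between plain CPM and the fit in 2 of the 37 pairs, Notch1 in endothelial-like (0.16 in log2 CPM) and in stem and progenitor-like cells (0.0043), neither of which passed.

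**Figure D4:**
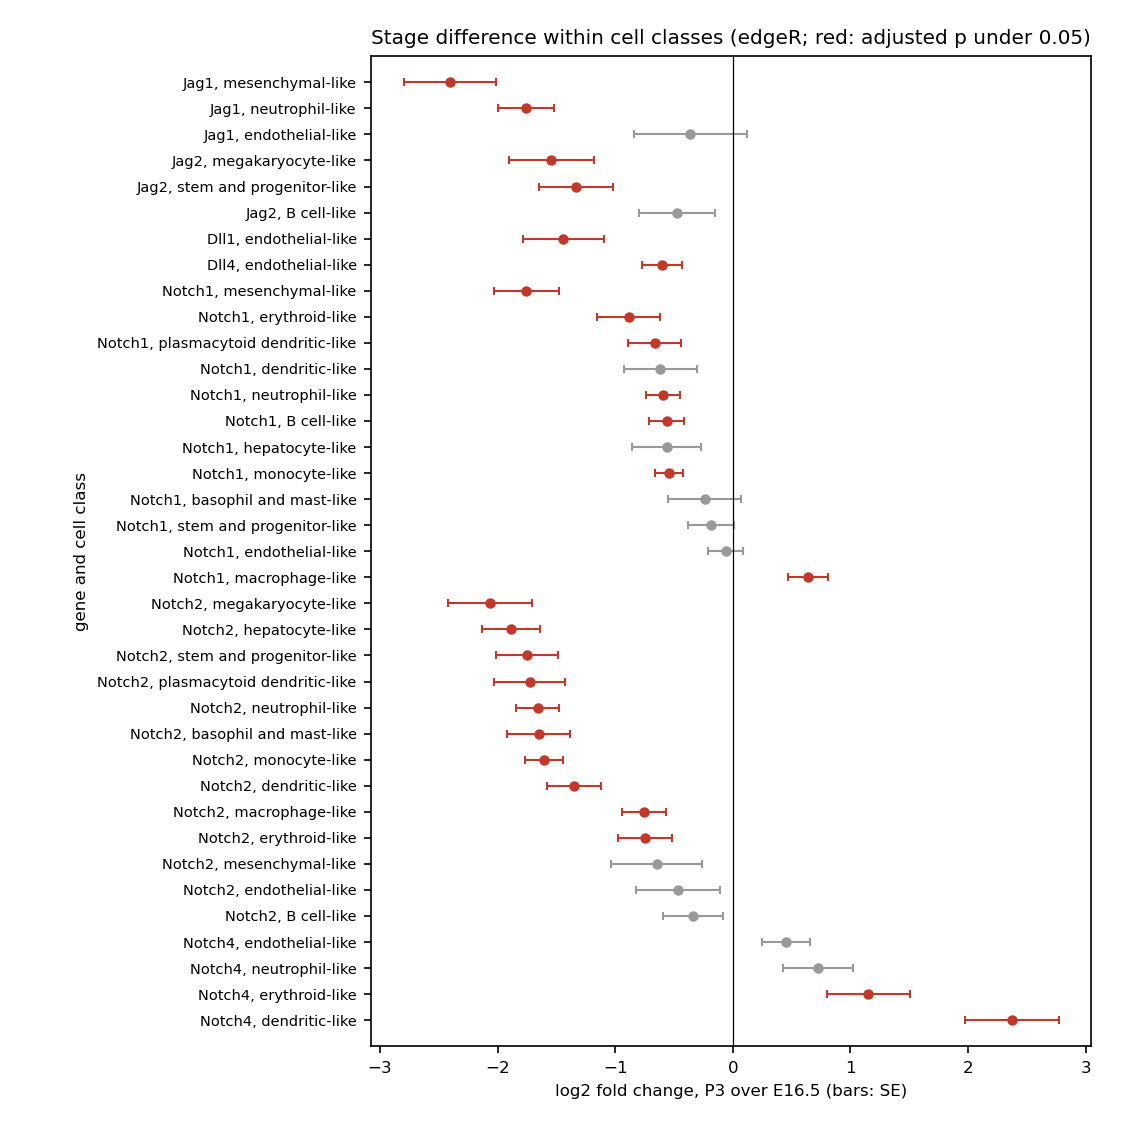
Log2 fold change of P3 over E16.5 with its SE for the 37 tested pairs of gene and class; red marks an adjusted p under 0.05 by edgeR. All 13 values of Notch2 are negative, and the positive values that passed are Notch1 in macrophage-like cells and Notch4 in erythroid-like and dendritic-like cells.

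Among ligands, Jag1 fell in mesenchymal-like cells from 20.4 ± 6.95 (SD, n = 5) to 5.51 ± 3.70 CPM (n = 4), a log2 change of −2.40 ± 0.391 (SE, adjusted p = 0.00017). The P3 level rests on 10 UMIs, against 146 at E16.5. Without the mixed sub-clusters the change was −1.80 (adjusted p = 0.0106), but the P3 level then rested on 8 UMIs in 172 cells. The libraries then overlapped, at 13.2 to 34.3 CPM at E16.5 and 4.23 to 22.05 CPM at P3. Summed endothelial markers within the mesenchymal-like class were 930 to 1180 CPM at E16.5 and 131 to 205 CPM at P3, and their part in this fall was tested only by that removal. Neutrophil markers in the class summed to 778 to 7626 CPM at E16.5 and 7636 to 23859 CPM at P3. Its mesenchymal markers summed to 3219 to 4673 and 5271 to 8689 CPM, and hepatocyte markers in it to 2471 to 3436 and 832 to 1078 CPM. The Nppa-led sub-cluster held 1 Jag1 and 2 Notch1 UMIs, and the Ins2-led sub-cluster 0 and 1. The part of these cells and of the neutrophil, mesenchymal and hepatocyte markers in the changes of Jag1 and Notch1 was not tested. Within the mesenchymal-like class, stellate-like cells held 48.9 CPM of Jag1 (36.6 to 64.0) at E16.5. At P3 they held 24.8 CPM (5.12 to 72.5) from 3 UMIs in 40 cells. These intervals overlapped, so a fall in these pooled cells could not be read. Neutrophil-like Jag1 fell by 1.76 on the log2 scale (SE 0.241, adjusted p = 0.000126). Endothelial-like Jag1 did not pass (−0.36 ± 0.480, adjusted p = 0.569), with libraries at 7.01 to 24.8 CPM at E16.5 and 2.27 to 30.0 CPM at P3.

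Jag2 fell in stem and progenitor-like cells (−1.33 ± 0.316, adjusted p = 0.00276) and in megakaryocyte-like cells (−1.54 ± 0.362, adjusted p = 0.00339). Without libraries A and B the stem and progenitor-like value was −1.13 (adjusted p = 0.0769). Within the stem and progenitor-like class, erythroid markers summed to 39473 to 73879 CPM at E16.5 and 2581 to 4485 CPM at P3, and neutrophil markers to 1409 to 2350 and 4097 to 5870 CPM. Their part in the changes of Jag2 and Notch2 in this class was not tested. By endothelial-like sub-cluster, pooled Dll4 went from 119 to 153 CPM in arterial-like and from 54.6 to 76.2 CPM in sinusoidal-like cells. It went from 25.1 to 11.2 CPM in venous-like cells, and the intervals of the stages overlapped in each. In endothelial-like cells as a whole Dll1 fell (−1.44 ± 0.347, adjusted p = 0.00352) and Dll4 fell (−0.60 ± 0.172, adjusted p = 0.0103), with Dll4 libraries of the stages overlapping. In this class endothelial markers summed to 3767 to 6255 CPM at E16.5 and 7262 to 9448 CPM at P3, neutrophil markers to 2524 to 6097 and 9870 to 25577 CPM, and macrophage markers to 725 to 1248 and 1722 to 2079 CPM. Their part in these changes was not tested. Their endothelial-like receptors did not pass: Notch1 was −0.06 ± 0.148 (adjusted p = 0.777) and Notch4 0.45 ± 0.204 (adjusted p = 0.0832). Notch4 in this class passed without the shared library (0.59, adjusted p = 0.0318) and with the top 10% of doublet scores removed (0.57, adjusted p = 0.0430).

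Notch2 had a negative change in all 13 classes tested and passed in 10. The largest falls were in megakaryocyte-like (−2.07 ± 0.358, adjusted p = 0.000402), hepatocyte-like (−1.89 ± 0.246, adjusted p = 6.1e-05) and stem and progenitor-like cells (−1.75 ± 0.263, adjusted p = 7.3e-05). Megakaryocyte-like levels were low, with means of 9.34 CPM at E16.5 and 2.67 CPM at P3, beside erythroid-like means of 6.51 and 6.27 CPM. Its leading classes fell as well, by 1.60 in monocyte-like (SE 0.161) and by 1.35 in dendritic-like cells (SE 0.230) on the log2 scale. Within the dendritic-like class, dendritic markers summed to 3635 to 7311 CPM at E16.5 and 24313 to 34372 CPM at P3, erythroid markers to 51473 to 94882 and 7661 to 26885 CPM, macrophage markers to 538 to 1729 and 104 to 261 CPM, and hepatocyte markers to 1003 to 1764 and 284 to 684 CPM. Their part in the changes of Notch2 and, below, of Notch4 in this class was not tested. Erythroid-like Notch2 fell by 0.75 in the fit (SE 0.226, adjusted p = 0.0190) but by 0.053 in plain log2 CPM, and macrophage-like Notch2 by 0.76 (SE 0.186, adjusted p = 0.00588) but by 0.15 in plain log2 CPM, so the size of both rests on the scaling. At Leiden resolution 2 the erythroid-like value was −0.43 (adjusted p = 0.136). The smallest shift was in B cell-like cells (−0.34, adjusted p = 0.308), and neither endothelial-like (−0.47) nor mesenchymal-like cells (−0.65) passed.

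Notch1 fell in 6 classes, most in mesenchymal-like cells (−1.76 ± 0.275, adjusted p = 0.000123), and by 0.54 to 0.89 on the log2 scale in monocyte-like, B cell-like, neutrophil-like, plasmacytoid dendritic-like and erythroid-like cells. The erythroid-like value of −0.89 was −0.25 in plain log2 CPM (0.968 ± 0.464 to 0.815 ± 0.168 CPM), so its size rests on the scaling. Without the mixed sub-clusters the mesenchymal-like change was −1.50 (adjusted p = 0.00883), with levels of 37.9 ± 8.72 CPM at E16.5 and 22.6 ± 15.8 CPM at P3. The part of the lower endothelial marker sums of this class at P3, given above for Jag1, was tested only by that removal. The islet and heart transcripts and the other marker sums named there apply here as well. Within the class, stellate-like cells held 90.5 CPM of Notch1 (73.4 to 110) at E16.5. At P3 they held 124 CPM (69.4 to 205) from 15 UMIs in 40 cells, so no fall was seen in these pooled cells. Without libraries A and B, B cell-like (−0.54, adjusted p = 0.0669), neutrophil-like (−0.49, adjusted p = 0.0638), plasmacytoid dendritic-like (−0.64, adjusted p = 0.116) and erythroid-like cells (−0.82, adjusted p = 0.0894) did not pass. Erythroid-like cells also missed without B alone (adjusted p = 0.0553), and plasmacytoid dendritic-like cells without B (0.0730), the shared library (0.0505) or Jag1Ndr/Ndr replicate 2 (0.0802), or over barcodes with 3 class markers (−0.41, adjusted p = 0.181). In macrophage-like cells it rose, from 12.4, 17.0, 11.2, 13.1 and 11.6 CPM to 37.1, 34.1, 22.6 and 29.8 CPM (0.64 ± 0.170, adjusted p = 0.00936). No library of the 2 stages overlapped. Without libraries A and B the value was 0.35 (adjusted p = 0.185). The macrophage markers of that class, such as Cd5l, Vsig4 and Clec4f, summed to 6301 to 8447 CPM at E16.5 and 27334 to 33058 CPM at P3. Erythroid markers in it summed to 109020 to 158182 and 23359 to 62211 CPM, endothelial markers to 176 to 292 and 372 to 461 CPM, and neutrophil markers to 2259 to 5429 and 1389 to 2228 CPM. Their part in this rise, and in the fall of Notch2 in the same class, was not tested.

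Notch4 rose in dendritic-like cells by a log2 change of 2.37 ± 0.398 (adjusted p = 0.000218), the largest rise among the 37 pairs. The marker sums of that class, given above for Notch2, moved with it. Erythroid-like Notch4 rose by 1.15 ± 0.350 (adjusted p = 0.0192) from a level of 0.117 ± 0.0628 to 0.416 ± 0.0618 CPM. This is the class used here as background, with a Notch4 UMI in 0.0867% of its cells at E16.5 and 0.241% at P3 (thinned, 0.0221% and 0.0517%), so it is not read as expression in erythroid-like cells. Without library A it was 1.00 (adjusted p = 0.0525), and without A and B 0.89 (adjusted p = 0.153). Neutrophil-like Notch4 was 0.73 ± 0.296 (adjusted p = 0.0645), and passed with doublets kept (0.89, adjusted p = 0.0268) and with the top 10% of doublet scores removed (0.87, adjusted p = 0.0301).

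The rest of the pathway was followed through 6 lists. Their stage counts are to be read against the 21.9% of all pairs that were higher and the 21.7% that were lower at P3. No gene of these lists was called between homozygous and other E16.5 libraries by edgeR. Between stages, the Notch target list (Hes1, Hes5, Hey2, Heyl and Nrarp among its 6 genes) had 9 of 20 pairs (45%) lower and 2 (10%) higher at P3, with a median of −0.69. Hes1, a transcriptional repressor, fell in B cell-like (−1.73), erythroid-like (−2.42), neutrophil-like (−1.08) and mesenchymal-like cells (−0.99). Nrarp, a feedback inhibitor of Notch, fell in neutrophil-like (−1.68), stem and progenitor-like (−1.52) and B cell-like cells (−0.78) and rose in erythroid-like cells (0.78). Heyl fell in B cell-like (−2.39) and Hey2 in erythroid-like cells (−6.38), while Hes5 rose in B cell-like cells (0.65). As for Notch4, changes in erythroid-like cells, the background class, are not read as changes of expression there, for these targets and for the other genes below.

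The cleavage list had 25 of 111 pairs (22.5%) higher and 28 (25.2%) lower, near the shares over all pairs. Adam10, the protease of the first activating cut, fell in 12 classes (−0.72 to −1.79), and Ncstn, a subunit of gamma-secretase, fell in 10 (−0.86 to −1.89). Psen2, a catalytic subunit of the same enzyme, rose in 10 classes (0.52 to 1.29). In endothelial-like cells all 3 passed, with Adam10 at −0.82, Ncstn at −0.95 and Psen2 at 1.23.

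Fringe and other receptor-glycosylating enzymes had 14 of 54 pairs (25.9%) higher and 2 (3.70%) lower, with a median of 0.27. Lfng, which modifies the receptors' extracellular repeats, rose most in macrophage-like cells (1.14) and fell in B cell-like cells (−0.77). Mfng rose in 4 classes and Rfng in 5. The nuclear partner list had 24 of 82 pairs (29.3%) higher and 14 (17.1%) lower, and Maml1, a coactivator of the RBPJ complex, fell in 12 classes and Snw1, a splicing and transcription cofactor, rose in 12. Rbpj itself passed in 1 class, dendritic-like cells (0.78). The trafficking list had 24 of 98 pairs (24.5%) higher and 20 (20.4%) lower, near the shares over all pairs, with Mib1, the ubiquitin ligase that activates ligands, lower in 10 classes, endothelial-like included (−0.59), and Dtx2 higher in 9. Of the non-canonical ligands, Dlk1, a fetal hepatoblast gene, fell by 6.76 on the log2 scale in hepatocyte-like cells. It was also lower in 8 other classes. Dlk1 was among the leading genes of the mesenchymal-like cluster at both stages, so it was not confined to hepatocyte-like cells. The part of free RNA in the values of the 8 classes was not tested, and they are not read as changes of the classes. Egfl7, a secreted endothelial protein, rose in endothelial-like (0.52) and erythroid-like cells (0.68) and fell in 4 other classes.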

How the data were processed

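Single-cell libraries from whole mouse livers were analysed as UMI counts per gene and barcode, as deposited by the authors; per the file headers the matrices came from 10x software 3.1.0 at E16.5 and 3.0.2 at P3, and per the submitters' processing notes Cell Ranger 2.1.1, R 4.1.2, Seurat and mm10 were used. The members and lists were chosen with earlier results of these data known, and the scoring that named clusters was settled after seeing them. A barcode was kept from 1000 UMIs upward if no more than 15% were mitochondrial. Barcodes of library C that also occurred in library A were removed. Doublets were marked with Scrublet (in 1 library, where the automatic threshold marked 0, the top 5% were taken), and clusters with over 50% doublets were removed. Each stage was clustered separately (scanpy 1.11.5, 2000 variable genes without the members and their targets, 30 components, 15 neighbours, Leiden resolution 1).

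UMIs were summed per class and library with at least 20 cells. Sums were tested with edgeR 4.0.16 in R 4.3.3 (quasi-likelihood, TMM, filterByExpr), with Benjamini-Hochberg adjustment over all pairs of class and gene and a threshold of 0.05. Replicates are the labelled individuals, and nothing further is given on their handling, so p-values measure the spread between these libraries. At E16.5, libraries with the same replicate number deviated together from their group means (r from 0.169 to 0.408 in 3 pairs). The numbers were therefore taken to pair these libraries. With 2 homozygous libraries their deviations mirror each other, so pairs of different number add nothing. Deviations from a mean cancel within each group, so the 3 values are not independent of each other. The labels do not say what a number shares. Intervals are exact 95% Poisson intervals and cover counting error only; a count of 0 is given an upper limit of 3 UMIs for a class and the Poisson bound for a sub-cluster. Scripts were tested on simulated data. DESeq2 1.42.0, other scalings, filters, doublet settings and clusterings, and leaving out libraries, were tried as alternatives. All 8 members are named, as are pathway genes that passed and the 3 genes most correlated with each member among those with at least 200 UMIs. Some genes that met this rule are not reported here. Sub-cluster genes, the check of plain CPM and the leaving out of mixed sub-clusters were chosen after seeing the data.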

Additional observations from a re-analysis of the deposited data

Results flagged for a closer look

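In 4 of 32 groups of libraries 1 library stood apart from the others by Dixon's Q, a test for 1 outlying value. Its chance rate of about 1 in 20 holds for normally distributed values. Some of these groups hold few UMIs, so 4 of 32 is not read as an excess over chance. Notch4 in mesenchymal-like cells at E16.5 was 11.2 CPM in the shared library and 1.61 to 4.34 CPM in the other 4. Notch4 in dendritic-like cells at P3 was 21.96 CPM in library C, against 10.4 to 11.9 CPM. Dll1 in T and NK cell-like cells at P3 was 3.64 CPM in library C, against 0 to 0.490 CPM. Notch3 in plasmacytoid dendritic-like cells at P3 was 6.65 CPM in library D, from 3 UMIs, against 1.51 to 2.22 CPM.

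The stage change of Notch1 in macrophage-like cells, the class where it rose, was set against that in each of the 6 classes where it fell. In log2(CPM + 1) without TMM scaling it was higher by 1.50 than in B cell-like, 1.26 than in erythroid-like, 2.63 than in mesenchymal-like, 1.56 than in monocyte-like, 1.59 than in neutrophil-like and 1.60 than in plasmacytoid dendritic-like cells. Each had an exact two-sided permutation p of 0.0159 (adjusted over the 6, 0.0159). That is the smallest p that 5 against 4 libraries allow. The 6 differences were chosen by the calls in the same libraries, which fixes their sign, so these p-values are no independent support. Part of each is the larger shift of all genes in the macrophage-like class, 0.60 in log2 CPM, except against erythroid-like cells, where the shift was 0.70.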

How the results depend on the processing

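Of 37 stage pairs, 25 passed, and 21 to 33 passed under the alternatives (33 of 103 without the filter on low counts, 21 of 43 without libraries A and B, 21 of 31 at Leiden resolution 2, 25 with DESeq2, 21 to 27 when 1 library was left out). In 541 combinations of a named pair and a setting, 523 kept direction and side of the threshold, 14 lost the call, 4 gained it and 0 reversed. In plain CPM, a comparison with no test chosen after seeing the data, 2 of 37 signs differed, neither of a pair that passed. Among the gains, endothelial-like Notch4 passed without the shared library (0.59, adjusted p = 0.0318). Between homozygous and other libraries 0 member pairs passed under every alternative run, while the count over all genes went from 1 to 474 without the filter, 16 with DESeq2 and 0 to 106 with 1 library left out. Across stages, replicate numbers did not pair the libraries: same-numbered libraries deviated with r from −0.338 to 0.186. With the replicate block 25 stage pairs and 0 genotype pairs of members passed, and no call of a member changed. The leading class at E16.5 changed for Jag2 and Notch2 at Leiden resolution 2. No dendritic-like class was named there at E16.5, so the class that led for Notch2 could not lead again. Sparse genes (Dll1, Notch3) are limited by 45 and 51 UMIs at P3.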
